A study of Mus musculus with 4 samples.

Results

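Neutrophils of the bleomycin-injured mouse lung are described here as 464 cells among 30860 single cells of 8 libraries. They were chosen on measured values. A cell was counted as a neutrophil when it held at least 10 unique molecular identifiers (UMIs, each standing for 1 captured RNA molecule) of S100a8, at least 1 UMI of Csf3r, Cxcr2 or Retnlg, and none of C1qa, Cd3e, Cd79a, Cdh5, Pdgfra and Epcam, which mark macrophages, T cells, B cells, endothelial cells, fibroblasts and epithelial cells. The study asked what the loss of Tubb3, which encodes the class III beta-tubulin of neurons and activated pericytes, does to the fibrotic lung. It compared 2 wild-type littermates (WT) with 2 Tubb3-/- mice, in which both copies of Tubb3 carry a Cre coding sequence at the start codon, so that the allele is a knock-in as well as a loss of Tubb3 in every cell. All 4 were young adults, and all 4 had received 0.8 U/kg bleomycin into the trachea 14 days earlier, so that no uninjured lung was compared. Each mouse gave a whole-cell library, from live cells after magnetic depletion of TER-119-positive erythroid cells, and a mural cell-enriched library, from which cells with CD45, CD31, EpCAM or TER-119 had been depleted before sorting. Values per mouse are given throughout in the order WT 1, WT 2, Tubb3-/- 1, Tubb3-/- 2.

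Neutrophils are short-lived granulocytes that leave the bone marrow under G-CSF and CXCR2 signals, and reach an injured lung within hours. They make their granule proteins in the marrow, azurophil granules first, then specific and gelatinase granules, and then largely stop transcribing them. Blood and tissue neutrophils carry little RNA, in which S100a8 and S100a9, the subunits of the antimicrobial calcium-binding protein calprotectin, are abundant. In injured tissue they release proteases, oxidants, IL-1 and chemokines that draw in further cells.

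The whole-cell libraries held 122, 145, 104 and 92 neutrophils among 3406, 3119, 4179 and 3456 cells. The mural cell-enriched libraries held 0, 0, 1 and 0, and no more than 1 of their 512 Ptprc-positive cells was a neutrophil, so the levels below rest on the whole-cell pool. Of 730 cells with 10 or more S100a8 UMIs, 643 held a UMI of Csf3r, Cxcr2 or Retnlg, and 464 were left after those with a UMI of another lineage were removed, most often Cdh5 (62 cells). Csf3r, the G-CSF receptor, was detected in 453 members, Cxcr2, the receptor for CXCL chemokines, in 374, and Retnlg in 362, and S100a8 had a median of 76 UMIs per member (lowest 10, highest 1032). Just inside the limit, 29 members with 10 to 14 S100a8 UMIs held 2123 CPM of S100a9 and 45584 CPM of Lyz2 (UMIs of a gene per 1000000 UMIs summed over the cells), against 513 and 44818 in the 72 cells with 5 to 9 that met the rest of the rule. Median UMIs per cell were 3390 in the 29 and 22018 in the 72. Deep cells weigh most in such sums, so these levels need not be those of a typical cell. Free RNA was present in the whole-cell pool. At least 1 S100a8 UMI was found in 19.9% of cells with 2 or more UMIs of the fibroblast gene Pdgfra (median 19621 UMIs per cell), but 10 or more in 0.649% of them. RNA of other cells was likewise found in the neutrophils. A UMI of the 9 epithelial genes listed was present in 462 of the 464, and in the 427 members of at most 8000 UMIs Scgb1a1, the club cell secretoglobin, stood at 1566, 1640.3, 1643 and 1582 CPM and Sftpc, the surfactant protein of alveolar type II cells, at 649, 578, 638 and 639.6. The part of free RNA in other levels of this size was not tested. Tubb3 itself gave 0 UMIs in the neutrophils of all 4 mice, and 1.99, 0.874, 0.277 and 0.339 CPM in the other whole-cell cells, lower in both Tubb3-/- mice. The RNA is counted near its 3′ end, downstream of the insertion, so this does not check the allele, and the added Cre gene also gave 0 UMIs in neutrophils. No barcode was shared between libraries of a pool, and 3 neutrophil barcodes recurred in the other pool.

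The members were not uniform in RNA content. A median neutrophil held 3501, 4093, 3661 and 3814.5 UMIs in the 4 mice, far under the 9436 to 12724 of a median cell in the same libraries. A tail of 37 cells (6, 12, 10 and 9) exceeded 8000 UMIs. They were 7.97% of the members and held 32.2% of their UMIs, with shares of 22.3%, 28.0%, 40.1% and 39.3% by mouse. S100a8 and S100a9 made up a median of 1.04% of the UMIs of these cells, against 5.89% in the other 427. The rule itself bears on this share, since 10 UMIs of S100a8 are a smaller part of a deep cell. Markers of macrophages moved with this split. Lyz2 (lysozyme) stood at 30404 CPM in the cells of over 8000 UMIs and 1696 in the others, Mrc1 (the mannose receptor) at 714 and 19.9, and Chil3 at 4726 and 226. Neutrophil genes outside the rule went the other way. Il1r2, a decoy receptor for IL-1, stood at 503 against 3271 and Hdc, which makes histamine, at 657 against 4147. At least 1 UMI of C1qb, C1qc, Mrc1 or Adgre1 was found in 29 of the 37 (78.4%) and in 107 of the 427 (25.1%). Over the whole macrophage list of 17 genes the summed level was 6620 against 547 CPM. Whether all of these cells are neutrophils was not tested, and a doublet caller marked 1 of the 464. Levels below are therefore those of the 427 cells of at most 8000 UMIs, and the shares, the median UMIs and the tests of genes by genotype are given with and without the 37. This limit was set after the values had been seen.

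**Figure D1:**
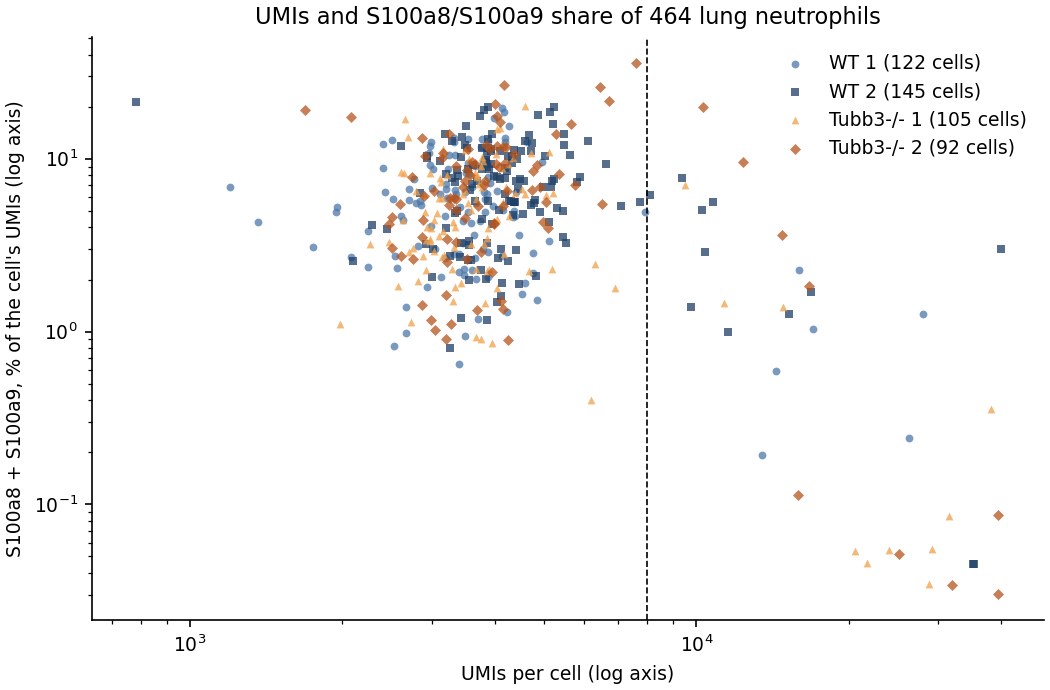
Each point is 1 of the 464 neutrophils, with its UMIs on the x axis and the percentage of them from S100a8 and S100a9 on the y axis (both log axes), coloured by mouse, and the dashed line stands at 8000 UMIs. Most cells form 1 cloud between about 2000 and 8000 UMIs, and the 37 cells to the right of the line have a lower median share, 1.04% against 5.89%.

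The 427 cells expressed the genes of mature neutrophils that the rule did not use. S100a9 stood at 39408, 49997, 35291 and 57042 CPM, against 28.4 ± 8.97 in the 190 classical monocytes of the same libraries (at least 2 UMIs of Ly6c2, 1 of Ccr2 and under 10 of S100a8, mean ± SD, n = 4 mice) and 175 ± 75.1 in all other cells. G0s2, a brake on fat breakdown, stood at 7534, 8344, 5832 and 7710.0, and Hdc at 4582, 4146, 4111 and 3639. Both were far above the monocytes, at 87.6 ± 62.0 and 31.4 ± 7.30. Because the neutrophils were chosen by genes of the same program, the comparison with other cells is a description with no test. The monocytes were chosen with under 10 S100a8 UMIs, which bears on their S100a9 level too, so it need not be that of all classical monocytes. The other cells still include those with 10 or more S100a8 UMIs that were removed for a UMI of another lineage. Their part in the levels and ratios against other cells was not tested. Over all 464 cells, the genes with the largest ratio of neutrophils to other cells included Stfa2l1, a stefin-type protease inhibitor (ratio 220), S100a9 (206), Il1f9, which encodes the IL-1 family cytokine IL-36 gamma (147), Acod1, which makes itaconate (115), Mmp9, the gelatinase of tertiary granules (105), the interferon-inducible Slfn4 (94.6), Hdc (83.9), Arg2 (70.7) and the glucose transporter Slc2a3 (47.1). Stfa2l1 has near-identical neighbours, so reads can be split between them or lost.

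Granule genes of the late stages of maturation were detected and those of the earliest stage were not. Of the azurophil granule genes, Mpo, Elane, Ctsg and Ms4a3 gave 0 UMIs in all 464 cells, and Prtn3 gave 3. With summed UMIs of 515523 to 759556 per mouse, a count of 0 allows up to 3.95 to 5.82 CPM. Of the specific granule genes, Lcn2, an iron-withholding protein, stood at 429, 682, 606 and 703 CPM and Mmp8, the neutrophil collagenase, at 167, 210.3, 207 and 289.9, whereas the earlier-stage genes Camp (50 UMIs in 5 cells) and Ltf (91 UMIs in 24 cells) were confined to few cells. Gelatinase granule and late genes were strong in every mouse. Mmp9 stood at 519, 594, 452 and 570.3, Slpi, an elastase inhibitor, at 2834, 3643, 2456 and 3173 and Pglyrp1, a peptidoglycan-binding protein, at 612, 753, 626 and 766. The cell cycle genes Mki67 and Top2a were low, Mki67 at 4.99, 9.14, 0 and 0 and Top2a at 4.99, 3.66, 8.74 and 0. The 18 cell cycle genes listed summed to 749, 790, 813 and 810, against a mean of 848 in monocytes. Ly6g, the surface antigen by which mouse neutrophils are sorted, was sparse in RNA (50 UMIs in 34 cells), with 4.99, 32.9, 11.7 and 53.6 CPM, yet its mean in the other cells was 0.118.

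Among receptors, Csf3r (part of the rule) stood at 1765, 1746, 1774 and 1676 CPM and varied little between mice. Il1r2 stood at 3329, 3087, 3342 and 3438, against 80.7 ± 16.1 in monocytes. Ccr1, a receptor for CCL3 and CCL5, stood at 1189, 1075, 1226 and 1081, and C5ar1, the receptor for complement C5a, at 829, 803, 889 and 671. The innate receptors were high too. Clec4d stood at 3301, 3015, 2814 and 2971, Clec4e at 1558, 1549, 1343 and 1383 (both lectins for microbial glycolipids), and Trem1, an amplifier of inflammation, at 1281, 1219.7, 903 and 967. Trem1 was lower in both Tubb3-/- mice, but the difference did not pass the test (log2 fold change -0.41, adjusted p = 0.85). Siglecf, which marks long-lived neutrophils of injured or tumour-bearing tissue, was rare, with 54 UMIs in 30 of the 464 cells and 4.99, 12.8, 32.0 and 12.6 CPM in the 427. The whole list of 19 tissue-resident SiglecF-type genes summed to 4093, 3564, 3409 and 3664 CPM in the 427, against a mean of 8803 in monocytes.

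The secreted products were led by IL-1 beta and chemokines. Il1b stood at 10647, 9646, 10086 and 9975 CPM, against 1063 ± 279 in monocytes. Cxcl2, which attracts further neutrophils through CXCR2, stood at 8655, 7858, 9130.2 and 10429, and Ccl6 at 1990.1, 2070.0, 2089 and 1821. Thbs1, thrombospondin 1, which can activate latent TGF-beta, stood at 5868, 5309, 5323 and 4893, against 1932 ± 206 in monocytes. Cxcl2 was higher in both Tubb3-/- mice (log2 fold change 0.26), whereas it was -0.06 with all 464 cells, and none of Il1b, Cxcl2, Ccl6 and Thbs1 passed the genotype test (adjusted p = 0.993, 0.983, 0.993 and 0.99). Several other mediators were low, namely Tnf at 12.5, 27.4, 26.2 and 31.5, Il6 at 17.5, 12.8, 5.83 and 12.6 and Il10 at 4.99, 1.83, 8.74 and 3.15. Tgfb1, the fibrogenic cytokine, stood at 72.4, 65.8, 64.1 and 69.3, under the 347 ± 69.8 of monocytes.

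The NADPH oxidase, which makes superoxide, was uneven by subunit. The cytosolic Ncf1 stood at 385, 406, 344 and 337 CPM against 115 ± 32.0 in monocytes. The membrane subunit Cybb was the reverse, at 25, 38.4, 69.9 and 37.8 against 1062 ± 190.5. Cd74, the invariant chain that accompanies MHC class II, was low (242, 249, 268 and 211, against 2085 ± 1329 in monocytes). The MHC class II list of 7 genes summed to 624, 633, 690 and 542, against a mean of 4550 in monocytes. Among transcription factors, Cebpb, which sustains emergency granulopoiesis, stood at 6667, 6525, 6561 and 6358, and Mxd1, a MYC antagonist of terminal differentiation, at 1648, 1911, 2229 and 2414 against 113 ± 21.6 in monocytes. The survival gene Mcl1, on which neutrophils depend, stood at 1623, 1613, 1955 and 1834. Ferritin heavy chain (Fth1) reached 19335, 22044, 20865 and 21438.

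**Figure D2:**
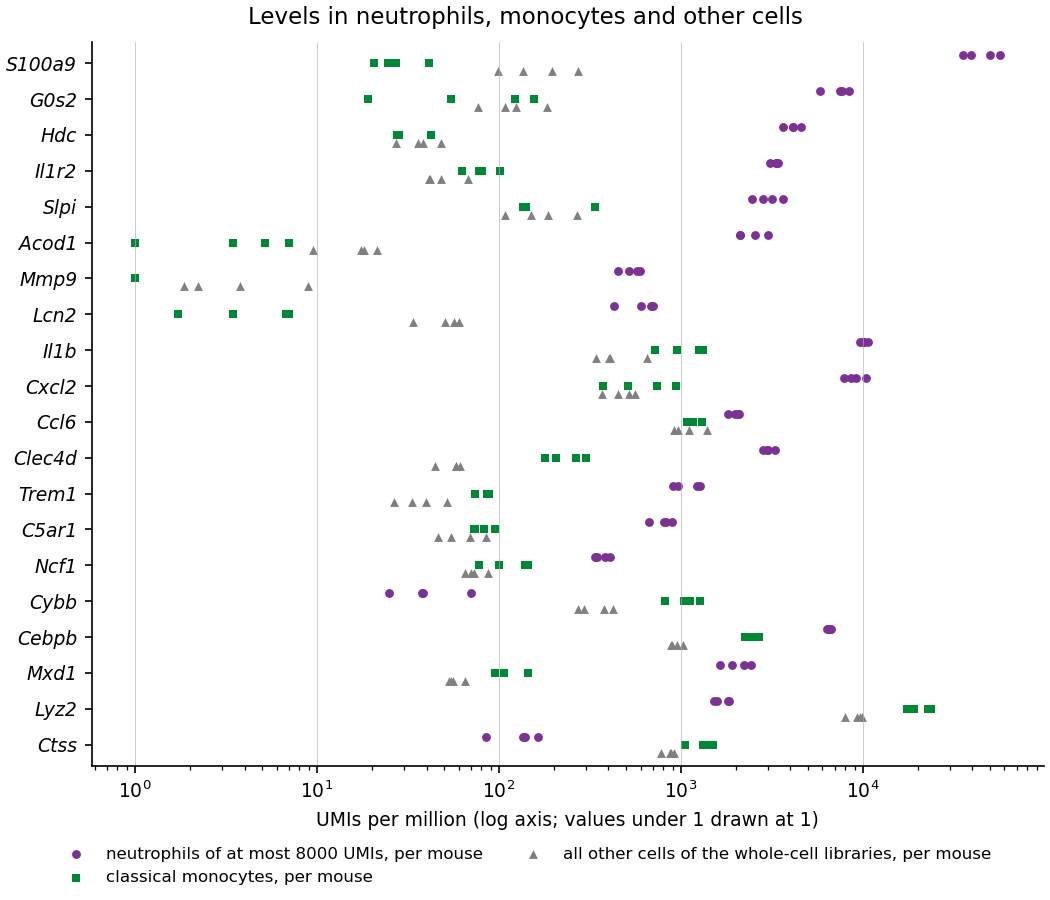
Levels of 20 genes in CPM (log axis, values under 1 drawn at 1), 1 point per mouse, in neutrophils of at most 8000 UMIs, in classical monocytes and in all other cells of the whole-cell libraries. S100a9, Il1b and Hdc are higher in the neutrophils of every mouse than in either other population, and Cybb, Lyz2 and Ctss are lower.

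Neutrophils were a smaller share of the cells in both Tubb3-/- mice, but 2 mice against 2 cannot decide it. The share of whole-cell cells was 3.58%, 4.65%, 2.49% and 2.66% (exact 95% binomial intervals 2.98 to 4.26, 3.94 to 5.45, 2.04 to 3.01 and 2.15 to 3.25, covering counting error only). Both WT values lay above both Tubb3-/- values, with means of 4.12% ± 0.754 and 2.58% ± 0.123 (SD, n = 2 each), a difference of -1.54 percentage points and a ratio of 0.626. The exact two-sided permutation test gave p = 0.333, the smallest that 2 against 2 allows. Among Ptprc-positive cells, the leukocytes, the share was 5.39%, 7.62%, 4.18% and 4.55%, a difference of -2.14 points and a ratio of 0.671, again with p = 0.333 (exact permutation). The lower WT value and the higher Tubb3-/- value had overlapping counting intervals in either share. They were 2.98 to 4.26 and 2.15 to 3.25 of all cells, and 4.50 to 6.41 and 3.69 to 5.55 of Ptprc-positive cells. Median UMIs per neutrophil overlapped between genotypes (difference -59.25, p = 1, exact permutation). Without the 37 cells the difference in neutrophil share of whole-cell libraries was -1.51 points, that in neutrophil share of Ptprc-positive cells in whole-cell libraries -2.12 points and that in median UMIs per neutrophil -130.5. A share is set by every other population that was dissociated and sorted, so fewer neutrophils and more of other cells cannot be told apart.

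**Figure D3:**
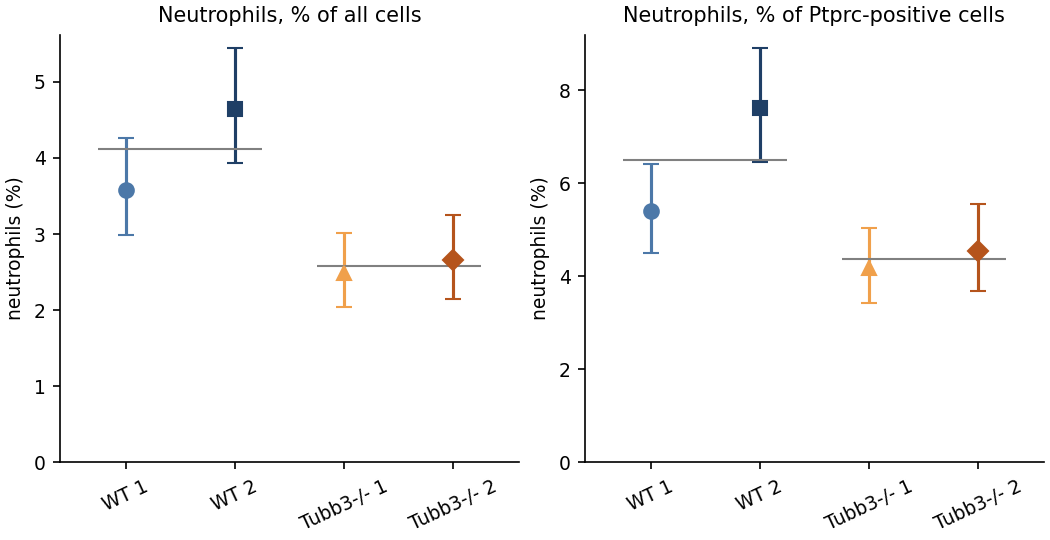
Neutrophils as a percentage of all cells (left) and of Ptprc-positive cells (right) in the whole-cell library of each mouse, with exact 95% binomial intervals as bars and genotype means as grey lines. Both WT mice lie above both Tubb3-/- mice in either panel, at 3.58% and 4.65% against 2.49% and 2.66% of all cells.

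With all 464 cells summed per mouse, 2 of 5505 genes tested (0.0363%) passed the genotype test (edgeR, quasi-likelihood, Benjamini-Hochberg adjusted p under 0.05), and neither call was kept among the 427 cells of at most 8000 UMIs. Chil3, a chitinase-like protein of macrophages and immature neutrophils, stood at 842, 619, 3155 and 2404 CPM (log2 fold change 1.88, SE 0.20, adjusted p = 0.0299). Igfbp5, an IGF-binding protein of stromal cells, stood at 186, 229, 17.5 and 21.0 (-3.47, SE 0.28, adjusted p = 0.00991). The groups did not overlap in either, but 90.9% of the Chil3 UMIs and 92.1% of the Igfbp5 UMIs lay in the 37 cells. Without them Chil3 stood at 249.7, 230.4, 236 and 176, with a log2 fold change of -0.21, and Igfbp5, at 15, 16.5, 14.6 and 9.45, fell under the filter. Several of the next genes by adjusted p were macrophage genes. Mertk, the efferocytosis receptor of macrophages (91.2, 56.6, 314 and 281), Lyz2 (4064, 6004, 17855 and 17286), Spp1, osteopontin (659.5, 311, 1959 and 1925), Ctss, cathepsin S (361, 558, 1250.3 and 1757) and Mrc1 (128, 46.1, 468 and 398) were higher in both Tubb3-/- mice with adjusted p = 0.0519, 0.0519, 0.0913, 0.0913 and 0.097. Prkcb, protein kinase C beta, a kinase upstream of the oxidase, was lower at the same adjusted p as Spp1 and Ctss (409, 382, 199 and 199, log2 fold change -1.03, adjusted p = 0.0913). With the replicate number as a block, which separates the mice as Xist and the Y-linked genes do, 106 genes passed, Chil3, Igfbp5, Mertk, Lyz2, Spp1, Ctss, Mrc1 and Prkcb among them (adjusted p = 3.7e-05, 9.7e-05, 0.0011, 0.00012, 0.00089, 0.00011, 0.0012 and 0.0168), and among the 427 cells 3 passed. The block takes up a further term with only 4 mice, so these adjusted p-values rest on fewer residual degrees of freedom. In the 427 cells Lyz2 overlapped between genotypes (1526, 1810.3, 1570.3 and 1849.5) and Spp1 was not higher (432, 187, 218 and 189). The macrophage list had 5 of its 12 tested members higher in both Tubb3-/- mice and 0 lower, against 25.8% of all genes higher and 19.5% lower. Among the 427 cells 5 of that list were tested, with 1 higher and 1 lower. Lists of stromal cells went the other way with all 464 cells. The fibroblast list had 0 higher and 5 lower of 8 tested (median log2 fold change -0.69), and the endothelial list 0 and 3 of 4. Among the 427 the fibroblast list had 1 higher and 1 lower of 8. Igfbp5 stood at 782, 776, 21.8 and 38.9 CPM in the 37 cells.

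**Figure D4:**
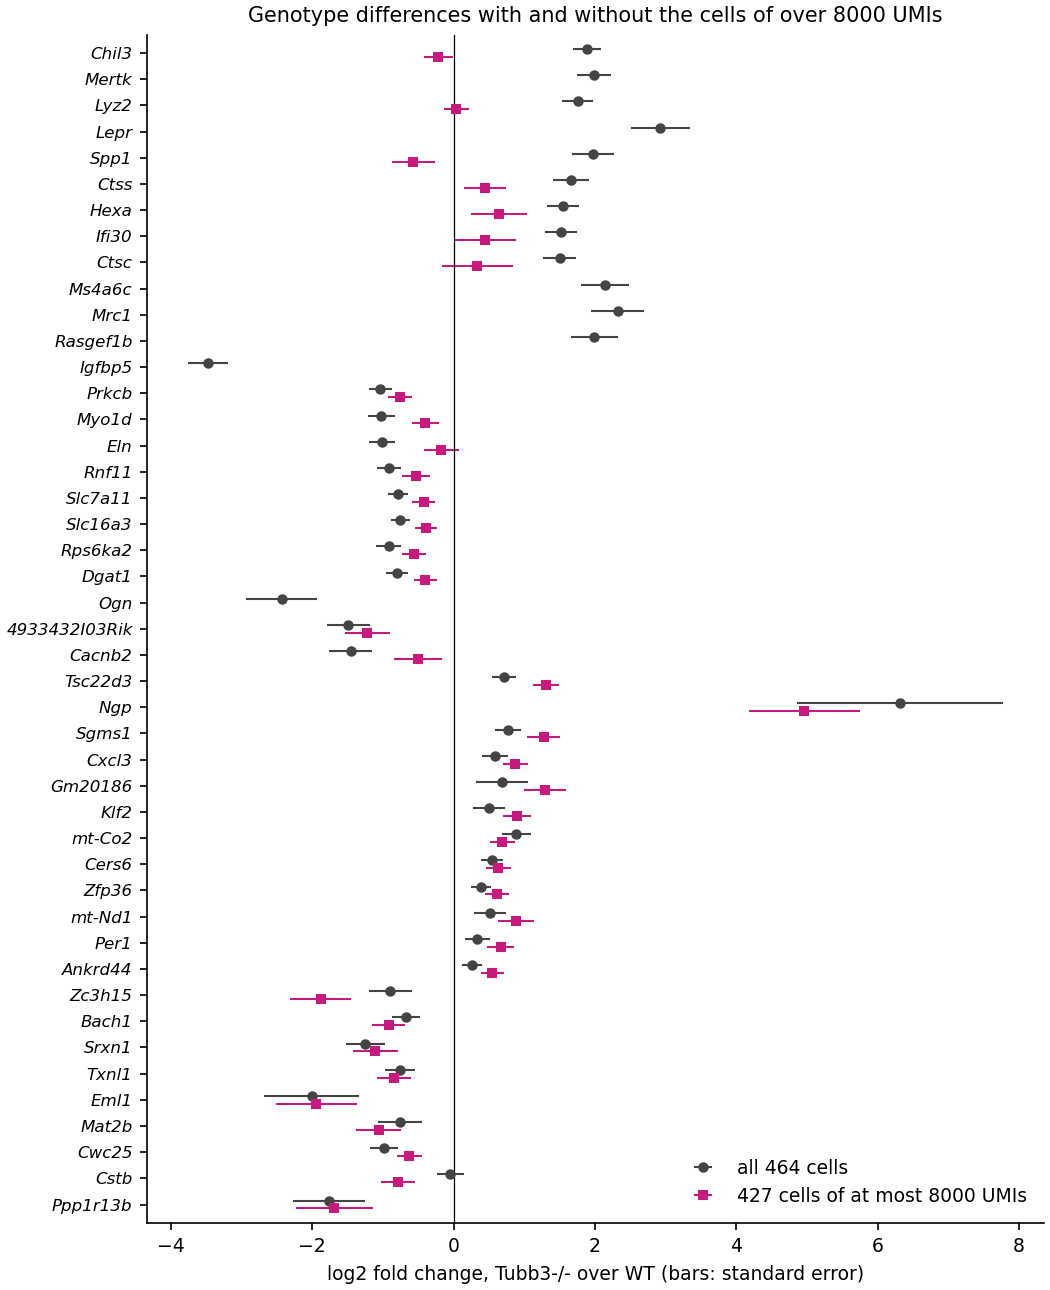
Log2 fold change of Tubb3-/- over WT with its standard error for the genes named in the genotype comparison, from all 464 neutrophils (dark circles) and from the 427 of at most 8000 UMIs (magenta squares). The standard error is the absolute change divided by the square root of the F statistic of the test. Chil3 lies at 1.88 with all cells and -0.21 without the 37, and Tsc22d3 at 0.71 and 1.31.

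Among the 427 cells, 2 of 3713 genes tested (0.0539%) passed the same test, both higher in Tubb3-/- mice, while 212 had an unadjusted p under 0.05. Tsc22d3 encodes GILZ, the glucocorticoid-induced leucine zipper, which restrains NF-kB and AP-1 and whose transcription glucocorticoids raise. It stood at 175, 177, 452 and 422 CPM, and the groups did not overlap (log2 fold change 1.31, SE 0.18, adjusted p = 0.0217). The gene lies on chrX:140539528-140600659, minus strand (mm10). With all 464 cells the change was 0.71 (adjusted p = 0.168), without WT 2 it was 1.34 (adjusted p = 0.231), and with every cell thinned to 2000 UMIs, those of over 8000 included, it was 1.17 (adjusted p = 0.354). Per1, a clock gene, stood at 207, 197, 329 and 312, and Klf2, a quiescence factor, at 434, 327, 615 and 788, without passing the test (adjusted p = 0.714 and 0.348). Any part of glucocorticoids in these levels was not tested.

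The other call, Ngp, neutrophilic granule protein, rested on a handful of cells. It stood at 2.5, 5.49, 55.4 and 224 CPM (log2 fold change 4.96, SE 0.78, adjusted p = 0.0414; gene at chr9:110419747-110423012, plus strand, mm10). Both Tubb3-/- mice were above both WT mice. The call was lost without WT 2 (log2 fold change 5.66, adjusted p = 0.231) and without Tubb3-/- 2 (3.55, adjusted p = 0.281), and with every cell thinned to 2000 UMIs Ngp fell under the filter. Over all 464 cells its UMIs numbered 1, 3, 19 and 266, in 1, 3, 4 and 5 cells, and single cells held up to 16 in Tubb3-/- 1 and up to 187 in Tubb3-/- 2. Counted together, Ngp, Camp and Ltf, genes of specific granules that are transcribed before neutrophils leave the marrow, reached 5 UMIs in 0, 0, 1 and 5 cells. In Tubb3-/- 2 the top 3 cells held 95% of the 381 UMIs of these genes.

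Other genes ordered by adjusted p in the 427 cells did not pass. Higher in both Tubb3-/- mice were Sgms1, sphingomyelin synthase 1 (107, 87.8, 242 and 227, adjusted p = 0.137), Cxcl3, a CXCR2 ligand (417, 318, 731 and 605, adjusted p = 0.236), Cers6, a ceramide synthase (259.7, 258, 425 and 378, adjusted p = 0.682) and Zfp36, the mRNA-destabilising protein TTP (579, 492, 787 and 844, adjusted p = 0.682). Lower in both were Prkcb (464, 461, 274 and 274, log2 fold change -0.75, adjusted p = 0.348), Bach1, a repressor of the haem oxygenase program (229.7, 207, 122 and 107, adjusted p = 0.621) and Srxn1, sulfiredoxin (105, 104, 52.4 and 44.1, adjusted p = 0.714). Of the Prkcb UMIs, 13.9% lay in the 37. The median log2 fold change over all 3713 genes was 0.00, with 16.5% higher and 17.0% lower in both Tubb3-/- mice.

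The gene lists by function are given beside that background by their counts, without the genes of the rule. Of 9 mitochondrial-encoded genes tested, 8 were higher in both Tubb3-/- mice and 0 lower (median log2 fold change 0.54), mt-Co2 at 335, 397, 661 and 523 and mt-Nd1 at 97.4, 93.3, 175 and 176 CPM, and none passed the test. The share of mitochondrial RNA also tracks cell quality, and its part here was not tested. Of 20 genes of NF-kB and activation, 8 were higher and 2 lower (median 0.17), with Nfkbia, the feedback inhibitor of NF-kB, at 679, 752, 1148 and 907 and Tnfaip3 (A20) at 187, 187, 355 and 249. Of 18 genes induced by tissue dissociation, 6 were higher and 1 lower (median 0.15). Of 24 transcription factors, 7 were higher and 1 lower, with Tsc22d3 the one that passed. Of 20 pattern and Fc receptors, 1 was higher and 7 lower (median -0.11), Clec4e at 1558, 1549, 1343 and 1383 among the latter. Of 21 chemotaxis and cytokine receptors, 4 were higher and 0 lower (median 0.09), and of 18 survival and death genes 5 and 1 (0.04). Counts were 2 higher and 2 lower of 35 interferon response genes (median 0.16), 4 and 2 of 19 cytokines and chemokines (-0.01), 2 and 3 of 14 adhesion genes (-0.01), 3 and 5 of 17 genes of hypoxia and glycolysis (-0.15), and 0 and 1 of 6 NADPH oxidase genes (-0.08). Of the tubulin isotypes, 6 were tested, with 0 higher and 3 lower (median -0.17). The 3 were Tubb4b at 49.9, 40.2, 35.0 and 28.4, Tubb6 at 32.5, 31.1, 8.74 and 15.8 and Tuba4a at 69.9, 60.3, 58.3 and 44.1, none of which passed the test, while Tuba1c, at the highest level of the isotypes, overlapped at 189.8, 149.9, 201 and 158. In these cells 3 UMIs equal 8.74 CPM in Tubb3-/- 1 and 9.45 in Tubb3-/- 2, so Tubb6 rests on few UMIs there. With all 464 cells, where 25.8% of genes were higher and 19.5% lower, the counts were 10 and 0 of 12 mitochondrial-encoded genes (median 0.77), 6 and 4 of 21 of NF-kB and activation (-0.01), 2 and 4 of 18 of dissociation (-0.16), 2 and 9 of 21 pattern and Fc receptors (-0.20), 4 and 7 of 21 chemotaxis and cytokine receptors (-0.14) and 1 and 2 of 8 tubulins (-0.41).

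Classical monocytes of the same mice served to ask whether a genotype difference in neutrophils differed from that in a related cell. They numbered 54, 57, 26 and 53. Of 7230 genes, 37 (0.512%) passed edgeR's test of the difference between the 2 changes, 12 with a higher change in neutrophils and 25 with a lower one. Among the 427 cells, 8 of 6461 (0.124%) passed, and 4 were shared, 10.8% of the first list and 50% of the second. Those 4 were Tagln, Dmxl2, Ccl4 and Egr1. In each, the monocytes of both Tubb3-/- mice lay above those of both WT mice. Differences below are those of the fit with the 427 cells. Ccl4, a chemokine, stood at 285, 236, 189 and 164 CPM in neutrophils and 266, 243, 767 and 402 in monocytes (difference of log2 changes -1.59, adjusted p = 0.0405). Egr1, an early-response factor, stood at 199.8, 126, 102 and 85.1 and 70.7, 48.2, 194 and 115 (-2.02, adjusted p = 0.0405). Dmxl2, a regulator of the vesicular proton pump, stood at 135, 154, 175 and 189 and 5.18, 3.44, 77.5 and 39.0 (-3.11, adjusted p = 0.0405). In the monocytes 3 UMIs equal 5.18 CPM in WT 1 and 5.16 in WT 2, so Dmxl2 lay at or under 3 UMIs in both. Tagln, a smooth muscle gene, stood at 64.9, 43.9, 61.2 and 59.9 and 10.4, 17.2, 63.4 and 252 (-3.07, adjusted p = 0.0405), which neither cell is known to make. The other calls among the 427 were Mt1, Ctsd and Spp1, with a lower change in neutrophils, and Basp1, with a higher one. For Spp1, neutrophils stood at 432, 187, 218 and 189 and monocytes at 112, 91.2, 655 and 158 (-2.14, adjusted p = 0.0405). The monocyte sum of Tubb3-/- 1 came from 26 cells.

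A further difference among mice ran across the genotypes. Interferon response genes were higher in WT 2 and Tubb3-/- 2 than in WT 1 and Tubb3-/- 1, and this was noted after the values had been seen, so it is given as a description. Isg15, a ubiquitin-like protein induced by type I interferon, stood at 744, 1536, 521 and 1654 CPM. Ifitm1 stood at 871, 1565, 929 and 1588 and Ifitm3 at 507, 1072, 673 and 1374, both membrane proteins that restrict viral entry. In all of these both replicate 2 mice lay above both replicate 1 mice. Slfn4 stood at 357, 488, 274 and 844, Oasl2 at 167, 325, 189 and 359, Rsad2 (viperin) at 205, 307, 134 and 284 and Irf7, the factor that amplifies the response, at 74.9, 154, 64.1 and 265. Of 35 interferon genes tested, 26 had both replicate 2 mice above both replicate 1 mice and 1 the reverse, against 13.8% of all 3713 genes above and 25.8% below. Cd274 (PD-L1), by contrast, stood at 369.6, 419, 466 and 413. The gelatinase granule list shifted too, with 7 of 11 above and 0 below (Retnlg, a gene of the rule, not counted), Hp, haptoglobin, at 916, 1152, 1066 and 1434 and Stfa2l1 at 287, 437, 349.6 and 463 among them.

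The same difference was present cell by cell. When the 427 cells were thinned to 2000 UMIs each, which left out 8 shallower ones, the 47 interferon genes had a median of 9, 15, 8 and 16 UMIs per cell. At least 10 were found in 43.2%, 72.7%, 37.2% and 75.6% of the cells, and up to 174 in 1 cell. Medians of the cytokine and chemokine list were 57, 53, 57 and 59 UMIs by the same measure, and did not split the mice in this way. Those of the gelatinase granule list (45, 51, 40.5 and 48) and of the S100 list, S100a8 of the rule included (119, 166.5, 106.5 and 146.5), did. Without thinning, the interferon list summed to 5748, 9381, 5768 and 10962 CPM. Depth differed in the same direction but less, with medians of 3479.5, 3952, 3545 and 3653 UMIs among the 427. Monocytes of the same mice gave Isg15 at 67.3, 194, 91.5 and 149 and Rsad2 at 17.3, 68.8, 10.6 and 44.1, also higher in the replicate 2 mice, and the other cells gave Isg15 at 52.7, 62.9, 48.4 and 62.2. The replicate number is no stated batch, but it coincided with another difference. Xist, expressed from the inactive X of females, stood at 12.5, 58.5, 11.7 and 50.4, and the Y-linked Ddx3y at 315, 7.31, 251 and 0 and Uty at 187, 1.83, 195 and 0. Sex and any day or litter shared by a number cannot be told apart here.

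**Figure D5:**
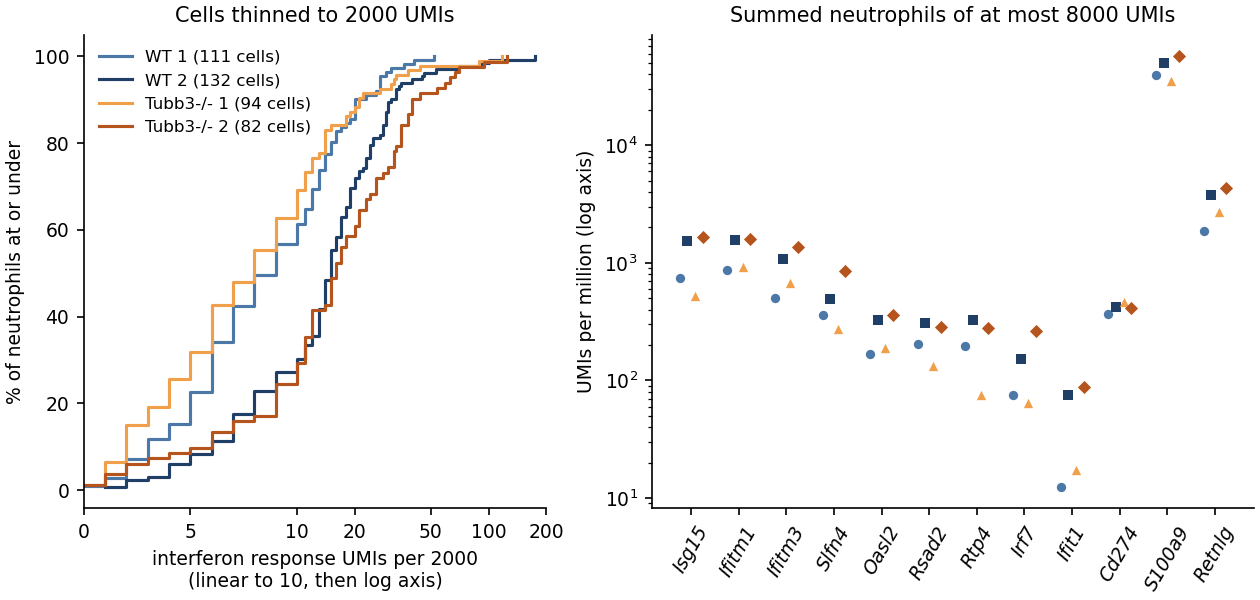
Left, the percentage of neutrophils of each mouse at or under a given number of interferon response UMIs after thinning to 2000 UMIs (axis linear to 10, then log). Right, the level of single genes per mouse in CPM (log axis), where both replicate 2 mice stand above both replicate 1 mice for Isg15, Ifitm1 and Rsad2 but not for Cd274.

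Interferon-induced transcription is carried by the factor complex ISGF3 and by IRFs, which bind repeats of GAAA. The promoters of 3 interferon genes are shown because they carry such a repeat and their genes separated the mice. Each sequence is the 250 bases before the RefSeq start (GRCm38.p6), 5′ to 3′ on the strand of the gene, and capitals mark matches to GAAANNGAAA on either strand (TTTCNNTTTC).
Isg15: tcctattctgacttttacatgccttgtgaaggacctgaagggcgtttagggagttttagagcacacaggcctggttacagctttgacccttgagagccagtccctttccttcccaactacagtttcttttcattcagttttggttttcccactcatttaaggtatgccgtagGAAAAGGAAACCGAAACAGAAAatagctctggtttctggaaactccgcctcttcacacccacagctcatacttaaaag
Ifit1: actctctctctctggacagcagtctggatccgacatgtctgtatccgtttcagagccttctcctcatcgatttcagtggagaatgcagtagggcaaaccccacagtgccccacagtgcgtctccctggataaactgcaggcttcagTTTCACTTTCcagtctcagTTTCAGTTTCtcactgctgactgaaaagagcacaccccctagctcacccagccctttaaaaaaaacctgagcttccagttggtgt
Rsad2: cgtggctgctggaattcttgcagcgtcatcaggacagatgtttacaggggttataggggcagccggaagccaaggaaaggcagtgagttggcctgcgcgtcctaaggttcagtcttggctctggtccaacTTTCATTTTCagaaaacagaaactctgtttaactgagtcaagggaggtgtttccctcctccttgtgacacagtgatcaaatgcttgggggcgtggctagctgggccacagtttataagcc
The Isg15 promoter, chr4:156200819-156201068 on the minus strand, held 3 overlapping matches that begin at bases -78 to -66 from the start. Ifit1, chr19:34640639-34640888 on the plus strand, held 2, at -104 and -85, and Rsad2, chr12:26456453-26456702 on the minus strand, held 1 at -120. In windows of 300 bases (250 before and 50 after the start) the motif stood in 1131 of 32851 promoters (3.44%). Counted by gene, it stood in at least 1 promoter of 3.99% of 27025 genes, and in 15 of the 28 tested interferon genes with a promoter in the table (53.6%). It was held by 12 of the 20 (60.0%) whose replicate 2 mice lay above, and by 3 of the other 8 (37.5%). A match describes the letters of the window and no binding was measured.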

How the data were processed

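Cell Ranger 7.1.0 is named in the submitters' processing notes, with mm10 as the genome and an added Cre gene. The authors deposited counts, whole UMIs per gene and cell for each of 8 tagged libraries from 2 pools, with no normalization. The same tables hold counts of the sample tags, which were set aside, and the separate tag libraries were not used here. Each library was assigned to its mouse by the tag given in the labels. Of 32121 barcodes, 30860 passed limits of 200 to 7500 genes and at most 15% mitochondrial UMIs.

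The choosing rule, the gene lists and the comparisons were fixed with earlier results of these data known. UMIs were summed per mouse over both libraries and tested with edgeR 4.0.16 (R 4.3.3; filterByExpr, TMM, quasi-likelihood, Benjamini-Hochberg, threshold 0.05). An SE given with such a change was derived from the test, as the absolute log2 change divided by the square root of its F statistic. The monocyte comparison was an interaction term with the mouse as a block. Shares were compared by exact permutation (scipy 1.17.1) and levels are CPM of the summed cells. Doublets were scored with Scrublet in scanpy 1.11.5 (139 of 14160 whole cells, 638 of 16700 mural cell-enriched cells) and kept. The fit was also run on simulated counts, with the same spread between mice for every gene and large changes in some genes. That setting need not match these data, so it does not measure the error of the calls. DESeq2 1.42.0 was an alternative. No per-sample column was left unused. Mice of a genotype are separate animals, 2 per group. Summed UMIs were 515523 to 759556 per mouse with all neutrophils and 317379 to 546858 with those of at most 8000 UMIs.

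Named in the genotype comparison were genes whose groups did not overlap and whose average reached 50 CPM, up to 12 per direction by adjusted p. Genes compared with other cells were the 25 with the largest ratio at 100 or more CPM. Promoters came from RefSeq (GRCm38.p6) and gene coordinates from the GENCODE annotation of mm10.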

Additional observations from a re-analysis of the deposited data

Results flagged for a closer look

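Of the genes named here, 9 differed in their genotype change between all 464 neutrophils and classical monocytes (interaction test of edgeR, adjusted p under 0.05). The change in neutrophils minus that in monocytes, on the log2 scale, was -1.62 for Ccl4, -2.28 for Egr1, -3.03 for Dmxl2, -3.82 for Tagln and -6.14 for Igfbp5. It was 1.46 for Ctss, 1.60 for Ifi30, 1.85 for Lyz2 and 2.21 for Ms4a6c. Among the 427 neutrophils of at most 8000 UMIs, Ccl4, Egr1, Dmxl2 and Tagln passed again. Ctss, Ifi30, Lyz2 and Ms4a6c, genes of macrophages and monocytes, did not, at 0.28, 0.56, 0.12 and -0.19, and Igfbp5 fell under the filter.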

How the results depend on the processing

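Among all neutrophils the number of genes called by genotype, 2 as reported, was 2 with RLE size factors and with the whole-cell libraries only, 29 with DESeq2, 305 with no filter on low counts, 9 without Scrublet doublets, 1 with S100a8 at least 5 UMIs, 0 with at least 20 (248 genes at an unadjusted p under 0.05), 0 without cells holding macrophage-gene UMIs (166 at an unadjusted p under 0.05) and 5 to 176 without 1 mouse. With the replicate number as a block, which leaves fewer residual degrees of freedom, it was 106, and 3 among cells of at most 8000 UMIs. No label says what a number shares, although it coincides with Xist and Y-linked levels, and deviations of same-numbered mice correlated at 0.106, or 0.235 among the cells of at most 8000 UMIs. Alternatives chosen after seeing the data gave 2 calls without neutrophils of over 8000 UMIs, also with DESeq2, 0 to 10 of these without 1 mouse, and 0 with each cell thinned to 2000 UMIs (163 at an unadjusted p under 0.05). The count against monocytes, 37 as reported, was 9 with DESeq2, 100 with no filter, 2 with S100a8 at least 20 UMIs, 24 without doublets, 8 without neutrophils of over 8000 UMIs and 21 to 66 without 1 mouse. The difference in neutrophil share of whole-cell libraries was -0.758 points over both libraries of each mouse, and -2.07 to -1.01 without 1 mouse. The neutrophil share of Ptprc-positive cells in whole-cell libraries gave -3.26 to -1.03. The difference in median UMIs per neutrophil was 5.25 with S100a8 at least 5 UMIs and -355.25 to 236.75 without 1 mouse, changing sign without WT 2 (236.75) and without Tubb3-/- 1 (17.5). Without neutrophils of over 8000 UMIs the log2 change of Chil3 was -0.21 (-0.22 with the replicate block, -0.22 with DESeq2, -0.37 to 2.09 over all fits without 1 mouse, all under 0 where these cells are left out), and -0.13 without cells holding macrophage-gene UMIs. That of Spp1 was -0.57 (-0.54 and -0.58, -1.06, -0.60 and -0.54 without WT 2, Tubb3-/- 1 and Tubb3-/- 2), and -0.41 without cells holding macrophage-gene UMIs, with -1.06 to 2.57 over all fits without 1 mouse. Lyz2 came to -0.10 and -0.17 without WT 1 and Tubb3-/- 2 (up to 2.06 with all neutrophils), and Mrc1 to -0.64 without Tubb3-/- 2 (up to 3.15). Cstb, which is -0.79 without neutrophils of over 8000 UMIs, was 0.21 with all neutrophils and without WT 1, and 0.17 with S100a8 at least 5 UMIs, the lowest without 1 mouse being -1.15. The fits that leave out the cells of over 8000 UMIs show only how far the values depend on them, and the causes were not tested. Of 888 values of named genes under alternatives, 729 kept their direction and side of the threshold, 135 newly passed it, 4 were lost and 20 changed sign. Calls from sums this small limit any statement to genes of high level.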
